A study of Mus musculus with 6 samples.

Results

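DEAD-box and DEAH-box genes encode RNA helicases of the spliceosome, the ribosome assembly line, the translating ribosome and other RNA machines. The 49 genes described here were the rows of the count table whose symbol began with Ddx or Dhx followed by a number and whose mean reached 50 counts over the 6 libraries, out of 23420 rows in all. Of 54 rows with such a symbol, 3 were left out by the rule and 2 fell under the minimum, Ddx43 with a mean of 4.83 counts and Ddx60 with a mean of 35.0. The members nearest above it were Ddx11, with a mean of 109.5 counts, and Ddx4, with 117.8. The set holds 34 Ddx and 15 Dhx symbols, and every one of them passed the filter on low counts. One of them, Ddx26b, is named Ints6l in the current annotation, a homologue of an Integrator subunit that carries the family symbol without being annotated as a helicase.

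The libraries came from mice of strain C57BL/6, 4 weeks old, with 3 animals per genotype and 1 cerebellum per library. The conditional knockout (cKO) animals carried Pcp2-BacTRAP and Pcp2-Cre, and of their Rbm17 alleles 1 was floxed and 1 null. The control animals carried Pcp2-BacTrap without Cre, and of their Rbm17 alleles 1 was floxed and 1 wild type. Pcp2 is a Purkinje cell gene whose promoter drives both the tagged ribosomal protein, pulled down with its bound RNA, and the Cre recombinase, so the deletion is aimed at the same cells as the purification. Because Cre and the null allele were present in cKO animals alone, each difference below is one between whole genotypes.

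These helicases use ATP to load onto, unwind or remodel RNA and RNA-protein complexes. DEAD-box proteins open short duplexes or clamp RNA locally, whereas DEAH-box proteins translocate along a strand and drive the large rearrangements that activate, proofread and dismantle the spliceosome. Several DEAH-box proteins, DHX15 among them, are switched on by partners that carry a G-patch, a short glycine-rich domain. RBM17, a splicing factor that acts at the 3′ splice site, is itself a G-patch protein. The helicases were compared between the genotypes at the level of genes and of splice junctions, with the other G-patch genes beside them.

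Each library held between 140110897 and 160571518 gene counts and between 73457422 and 83976095 junction reads. Rbm17 stood at 25.8, 25.6 and 26.3 counts per 1000000 library counts (CPM) in the cKO libraries, against 41.2, 42.5 and 41.3 CPM in the control libraries, and the groups did not overlap (log2 fold change -0.69, SE 0.09, edgeR adjusted p = 0.00163). Which exons the floxed allele removes is not given in the sources used here. Markers of Purkinje cells summed to between 22230 and 25600 CPM in cKO and between 35030 and 47630 CPM in control libraries, and 9 of 15 fell and 0 rose. Markers of microglia summed to between 116 and 191 CPM in cKO and between 60.6 and 89.6 CPM in control libraries, and 8 of 15 rose and 0 fell. Of 10 markers each, 0 of the granule cell and 0 of the oligodendrocyte genes passed the test, 1 astrocyte gene rose and 1 fell, and 1 interneuron gene, Pvalb, which Purkinje cells also express, fell. No marker was at 0 in all 6 libraries. In such bulk RNA, fewer cells of a type and less RNA per cell cannot be told apart. The part of these shifts in the helicase values was not tested.

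Together the 49 genes took 0.286%, 0.234% and 0.250% of all raw counts in the cKO libraries, against 0.258%, 0.229% and 0.234% in the control libraries, ranges that overlap. Summed as CPM they came to 2611, 2301 and 2460 in the cKO libraries, against 2775, 2385 and 2364 in the control libraries, which also overlap. The direction of the difference between group means thus depended on the scale. Dhx32 was the one gene of the set that passed the test, rising by a log2 fold change of 0.44, and 0 genes fell. Over all 16067 genes tested, 7.87% passed, with 4.03% higher and 3.85% lower in cKO. The median log2 fold change of the helicases was -0.0011 and its median absolute value 0.11, beside 0.0063 and 0.21 over all tested genes and -0.0041 and 0.19 over the 14435 tested genes with a mean of at least 50 counts. The 95% interval of the fold change lay within 1.5-fold in either direction for 39 of 49 helicases, or 79.6%, beside 54.4% of those 14435 genes. Interval width and the spread of fold changes depend on counts. The helicases had means from 109.5 to 69231 counts, and the comparison genes were not matched to them by count. The absolute log2 fold change was below 0.5 in 47 of 49, and the exceptions, Ddx11 and Ddx4, were the lowest in counts. At an unadjusted p under 0.05 there were 3 helicases higher in cKO (Dhx32, Dhx15 and Ddx41) and 5 lower (Ddx42, Ddx19b, Dhx37, Ddx46 and Ddx4), beside 22.1% of all genes in either direction.

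**Figure D1:**
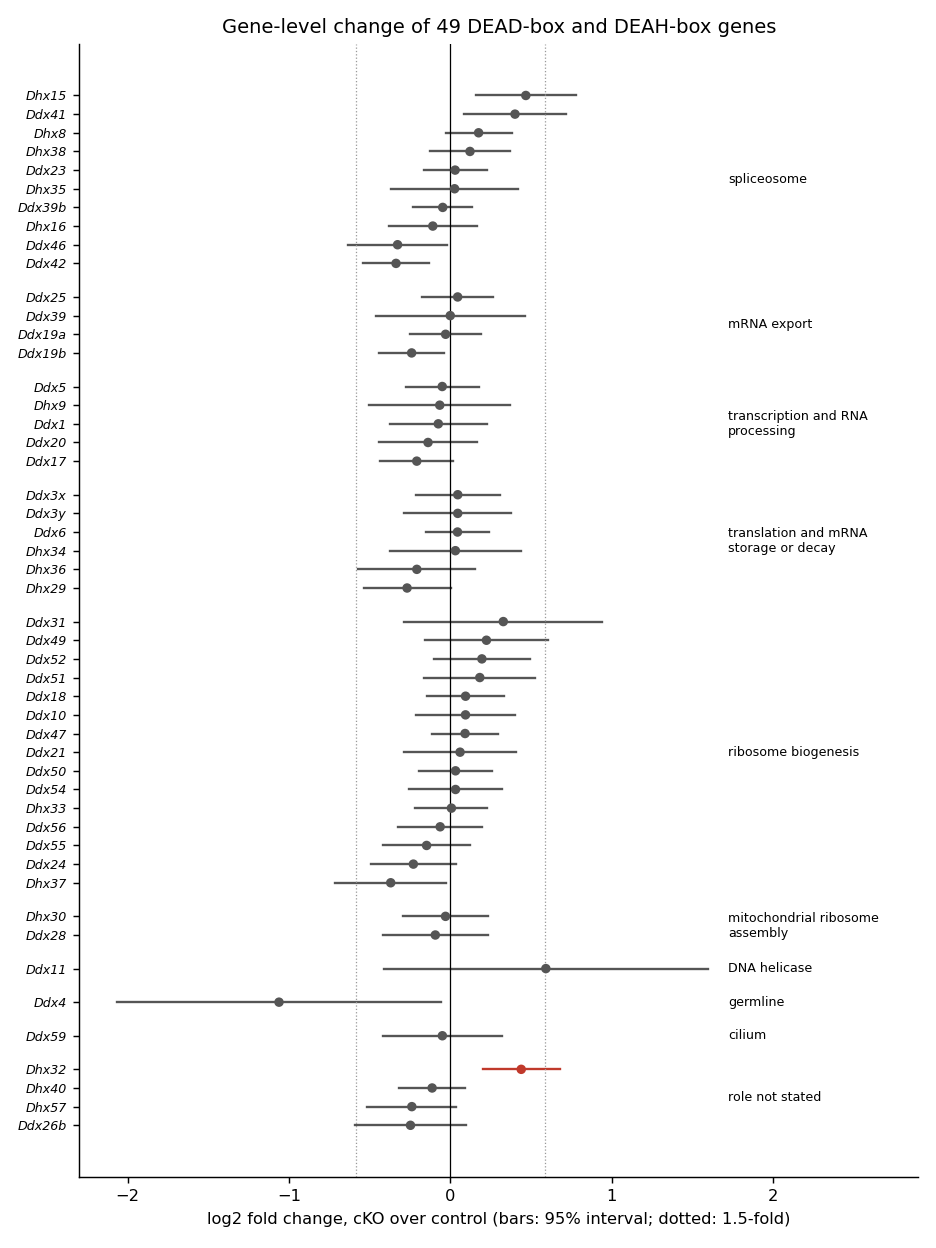
Log2 fold change of each of the 49 genes, cKO over control (points), with its 95% interval (bars), grouped by role. The dotted lines mark 1.5-fold either way, and Dhx32, in red, is the gene with an adjusted p under 0.05.

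The spliceosome held 10 of the genes, with a median log2 fold change of 0.03, and 0 of them passed the test. Dhx15 is the homologue of yeast Prp43, which takes apart spent spliceosomes and is activated by G-patch partners. It had 107.3, 83.1 and 103.0 CPM in the cKO libraries, against 85.1, 63.2 and 64.1 CPM in the control libraries. The groups overlapped, because the lowest cKO library lay just below control library 1. Its log2 fold change was 0.47 (SE 0.14, 95% interval 0.16 to 0.78, edgeR adjusted p = 0.0712). Reads over annotated Dhx15 junctions, a part of the same reads, were counted per 1000000 junction reads (RPM). All RPM values below likewise cover annotated junctions alone. They came to 159, 117 and 142 RPM in the cKO libraries, against 109.5, 83.3 and 86.6 RPM in the control libraries. On this measure the groups did not overlap. RPM uses raw junction totals, whereas CPM uses adjusted library sizes, so group differences on these measures are not directly comparable. By CPM, 24 of the 49 genes had a log2 fold change above 0, whereas by RPM most of them had the higher mean in cKO.

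Ddx42, a protein bound to the SF3b complex during assembly of the U2 particle, leaned the other way. It had 36.4, 33.3 and 37.6 CPM in the cKO libraries, against 46.5, 45.8 and 43.2 CPM in the control libraries. The highest cKO library lay below the lowest control library, with a log2 fold change of -0.34 (SE 0.09, 95% interval -0.54 to -0.13, edgeR adjusted p = 0.0547). Its junction reads did not separate the groups, at 37.0, 31.9 and 42.9 RPM in cKO and 40.0, 44.4 and 38.7 RPM in control libraries. Ddx46, the homologue of yeast Prp5 that acts at the same step, had a log2 fold change of -0.33 (SE 0.14), with overlapping groups.

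Ddx41, a helicase of the late spliceosome that is mutated in inherited myeloid leukaemia, had 33.8, 25.7 and 27.9 CPM in the cKO libraries, against 25.0, 18.5 and 22.6 CPM in the control libraries. The groups did not overlap, and the log2 fold change was 0.40 (SE 0.14, edgeR adjusted p = 0.127). On the opposite strand, the annotated gene Gm46416 shares 17.4% of the exon bases of Ddx41, and the library type does not mark strand. Reads over annotated Ddx41 junctions came to 84.56, 60.7 and 65.65 RPM in cKO and 56.55, 42.03 and 51.61 RPM in control libraries, without overlap. Dhx8, the Prp22 homologue that releases the spliced mRNA, had a log2 fold change of 0.17 (95% interval -0.03 to 0.38) with groups that did not overlap. The values nearer to 0 belonged to Ddx23, which helps exchange U1 for U6 at the 5′ splice site, to Dhx16 and Dhx38, the homologues of Prp2 and Prp16 that precede the chemical steps, to Dhx35, and to Ddx39b. Their log2 fold changes ran from -0.11 (Dhx16) to 0.12 (Dhx38).

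**Figure D2:**
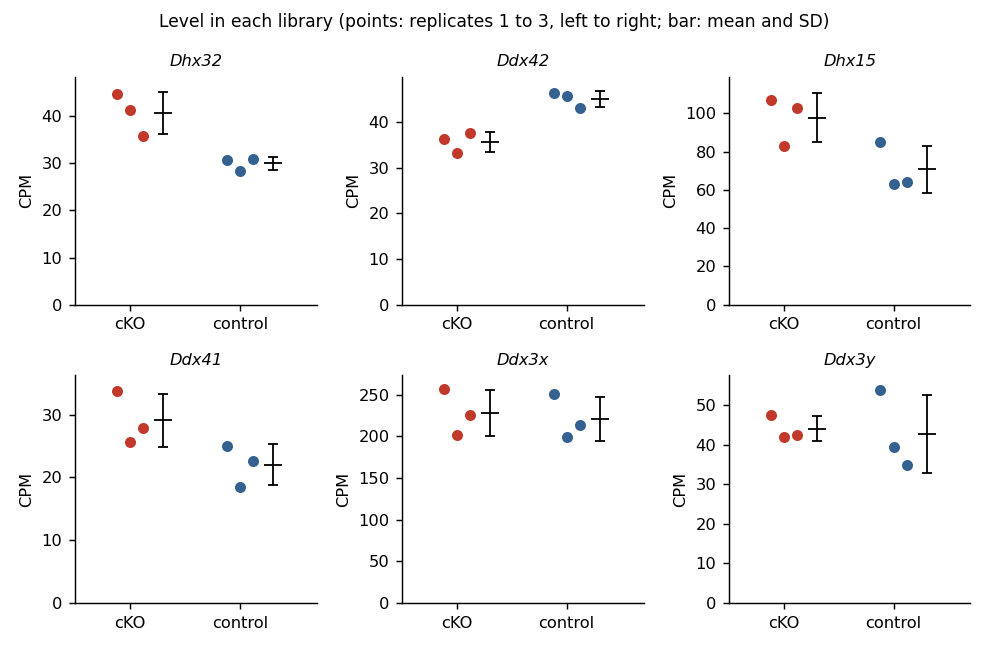
CPM of 6 helicase genes in each library, the cKO group left and the control group right, with group mean and SD. Dhx32, Ddx42 and Ddx41 do not overlap between the groups, while Dhx15, Ddx3x and Ddx3y do.

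Dhx32, a DEAH-box protein for which no role was assigned here, had 44.8, 41.4 and 35.9 CPM in the cKO libraries, against 30.8, 28.5 and 30.9 CPM in the control libraries. The lowest cKO library was above the highest control library. Its log2 fold change was 0.44 (SE 0.11, 95% interval 0.20 to 0.68, edgeR adjusted p = 0.0345). The call was lost in 5 of 6 fits that left out a library. The adjusted p was 0.109 without cKO library 1, 0.0979 without cKO library 2, and 0.0554, 0.158 and 0.0863 without control libraries 1, 2 and 3, and the log2 fold change stayed between 0.36 and 0.52 in all 6 fits.

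Dhx32 lies on chr7:133720942-133782726 (mm10, minus strand), and 204 bp of its exons, 4.89%, overlap exons of Bccip on the opposite strand. Bccip had a log2 fold change of -0.07 (edgeR adjusted p = 0.760). Summed over its annotated junctions, Dhx32 had 68.3, 61.4 and 54.0 RPM in the cKO libraries, against 40.0, 38.3 and 42.6 RPM in the control libraries. The groups did not overlap. Along the transcript Dhx32-201, the ratio of cKO to control means was 1.14 at the 5′-most intron, between 1.33 and 1.41 at the next 2, and between 1.43 and 1.84 at the others except intron 10, where it was 1.41. The groups overlapped at introns 1, 9 and 10. An annotated alternative junction into exon 2, from another annotated donor, had 3, 5 and 19 reads in the cKO libraries and 0 in each control library.

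**Figure D3:**
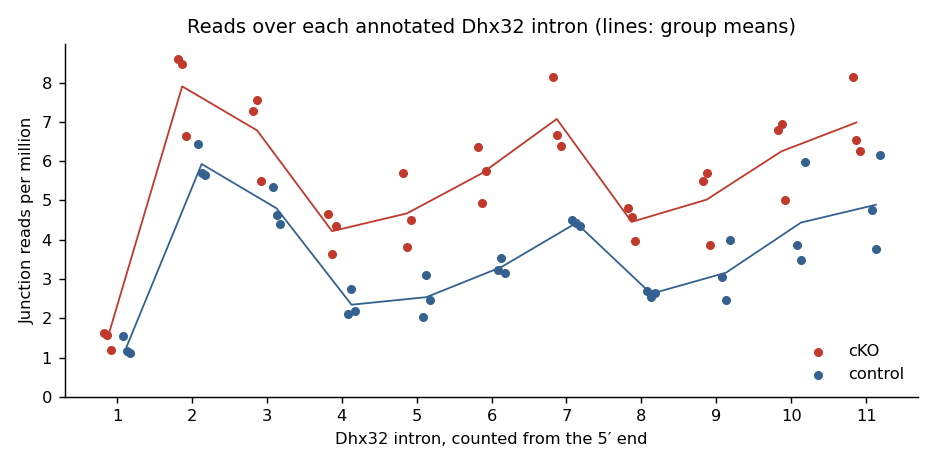
RPM over each annotated intron of Dhx32-201, counted from the 5′ end, by library (points) with group means (lines). The cKO mean lies above the control mean at every one of the 11 introns, with the smallest ratio, 1.14, at intron 1 and the largest, 1.84, at intron 5.

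Of the other genes with no role assigned, Dhx40 had a log2 fold change of -0.11, Dhx57 of -0.24 and Ddx26b of -0.25, and 0 of these passed the test. The groups did not overlap for Dhx40, at 32.8, 32.3 and 30.5 CPM in cKO and 34.7, 33.2 and 35.6 CPM in control libraries. Junction reads of Dhx40 separated the groups the other way. They came to 41.96, 44.3 and 40.71 RPM in cKO and 39.23, 37.72 and 34.95 RPM in control libraries. Across the whole set, 5 genes lay entirely above control in cKO by CPM (Dhx32, Ddx41, Dhx8, Ddx49 and Ddx11) and 5 entirely below (Ddx42, Ddx19b, Dhx37, Ddx4 and Dhx40), beside 15.0% and 13.4% of all genes tested, 28.4% in either direction. By reads over annotated junctions, Ddx11, Ddx42, Ddx19b and Ddx4 overlapped between the groups and Dhx40 separated the other way. The rest of these genes separated in the same direction as by CPM. By RPM but not by CPM, Dhx15, Ddx18, Ddx31, Ddx6 and Dhx38 lay entirely above control in cKO, and Ddx20 and Dhx29 entirely below. The share of all genes that separate by RPM was not worked out.

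Genes of ribosome assembly formed the largest group, 15 in number, with a median log2 fold change of 0.06, and 0 passed the test. Their log2 fold changes ran from -0.37 for Dhx37, which releases the U3 snoRNA from the small subunit precursor, to 0.33 for Ddx31. Dhx37 had 7.49, 9.62 and 9.97 CPM in the cKO libraries, against 12.7, 11.7 and 10.6 CPM in the control libraries, and the groups did not overlap (edgeR adjusted p = 0.192). Ddx49 also did not overlap, at 5.57, 5.64 and 6.82 CPM in cKO and 5.35, 5.29 and 4.80 CPM in control libraries. It shares 29.8% of its exon bases with Homer3 on the opposite strand, a Purkinje marker with a log2 fold change of -0.45 and an adjusted p of 0.0608 in edgeR's test. The part of Homer3 reads in the Ddx49 counts was not tested. Reads over annotated Ddx49 junctions came to 29.39, 28.26 and 35.09 RPM in cKO and 23.47, 26.05 and 23.59 RPM in control libraries, without overlap. These values leave out unannotated junctions, which held 14.8% of Ddx49 junction reads in cKO library 3 and 17.4% in control library 3. The separation is thus stated for annotated junctions alone. The nucleolar paralogues Ddx21 and Ddx50, neighbours on chromosome 10, had log2 fold changes of 0.06 and 0.03. The remaining genes of the group, Ddx10, Ddx18, Ddx24, Ddx47, Ddx51, Ddx52, Ddx54, Ddx55, Ddx56 and Dhx33, lay between -0.23 (Ddx24) and 0.19 (Ddx52).

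In mRNA export, Ddx19b, a Dbp5 homologue that strips export factors from mRNA at the nuclear pore, had 48.0, 50.8 and 46.3 CPM in the cKO libraries, against 60.8, 57.0 and 53.7 CPM in the control libraries. The groups did not overlap, and its log2 fold change was -0.24 (SE 0.09, edgeR adjusted p = 0.149). Its junction reads overlapped, at 33.86, 35.6 and 33.01 RPM in cKO and 42.41, 34.15 and 37.01 RPM in control libraries. Its copy Ddx19a had a log2 fold change of -0.03. The annotated transcripts of the pair share 831 stretches of 50 bases, 33.3% of those in Ddx19a, so reads in them could have been assigned to either gene. Ddx25, known from its role in testis, and Ddx39, a close relative of Ddx39b that shares 17.4% of its exon bases with Adgre5 on the opposite strand, had values of 0.04 and -0.0011.

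The 6 genes of translation and mRNA storage or decay had a median log2 fold change of 0.04, and 0 passed. Ddx3x, an X-linked helicase that helps initiation on structured leaders, had 257, 202 and 225 CPM in the cKO libraries, against 250.2, 199 and 213 CPM in the control libraries. Its Y-linked counterpart Ddx3y had 47.6, 41.9 and 42.4 CPM in the cKO libraries, against 53.7, 39.4 and 34.8 CPM in the control libraries. The groups overlapped for both, and each had a log2 fold change of 0.05, with 95% intervals of -0.21 to 0.31 for Ddx3x and -0.29 to 0.38 for Ddx3y. Ddx3y was read in all 6 libraries, and its transcripts shared only 2 stretches of 50 bases with those of Ddx3x. Ddx6, which represses translation and promotes decapping, had a log2 fold change of 0.04, and Dhx34, a factor of nonsense-mediated decay, one of 0.03. Dhx36, which resolves G-quadruplexes, and Dhx29, which aids ribosome scanning, had values of -0.21 and -0.27.

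The 5 genes of transcription and RNA processing all had a log2 fold change below 0, from -0.05 for Ddx5 to -0.21 for its paralogue Ddx17, and 0 passed. Ddx5 alone gave between 18.4% and 19.6% of the counts of the set. It had 481, 434 and 468 CPM in the cKO libraries, against 543, 448 and 444 CPM in the control libraries, and the groups overlapped. Between Ddx5 and Ddx17 lay Dhx9, or RNA helicase A, with -0.07, and Ddx1, a part of the tRNA ligase complex, with -0.08. Ddx20, or Gemin3, of the SMN complex that builds spliceosomal particles, had -0.14. The 95% intervals of all 5 genes included 0. By RPM, Ddx5, Ddx1 and Dhx9 had the higher mean in cKO, and Ddx17 and Ddx20 the lower. The pair that assembles the mitochondrial ribosome, Ddx28 and Dhx30, had values of -0.09 and -0.03. Ddx59, linked to cilia, had -0.05.

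Ddx4 and Ddx11 had the lowest levels of the set. Ddx4, the germline helicase Vasa, had 0.370, 0.543 and 0.681 CPM in the cKO libraries, against 1.33, 0.821 and 1.18 CPM in the control libraries. The groups did not overlap (log2 fold change -1.06, SE 0.45, 95% interval -2.07 to -0.06, edgeR adjusted p = 0.20). Ddx11, a DNA helicase of sister chromatid cohesion, had 0.980, 0.807 and 0.847 CPM in the cKO libraries, against 0.649, 0.702 and 0.397 CPM in the control libraries. These groups did not overlap either, and the interval of its log2 fold change ran from -0.41 to 1.6.

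Levels compared between genes are given per kilobase of annotated exon. Ddx5 was highest, at 79.9 ± 4.2 CPM per kb in cKO and 82.8 ± 9.7 in control libraries (SD, n = 3 each). Ddx3x followed with 43.2 ± 5.3 in cKO and 41.9 ± 5.0 in control libraries, and Ddx39b, the export and splicing helicase UAP56, with 25.1 ± 0.84 in cKO and 25.9 ± 0.70 in control libraries. None of the libraries of these 3 genes overlapped with those of the next in order. Ddx39b had 98.6, 92.7 and 93.4 CPM in the cKO libraries, against 100.4, 98.7 and 95.2 CPM in the control libraries, ranges that overlap, and a log2 fold change of -0.05. From rank 4 on, Ddx6, Ddx24, Ddx1 and Ddx17, with means over all libraries of 18.7, 17.0, 16.7 and 15.4 CPM per kb, overlapped with their neighbours. At the other end stood Ddx31, Ddx4 and Ddx11, with 0.80, 0.27 and 0.11 CPM per kb.

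**Figure D4:**
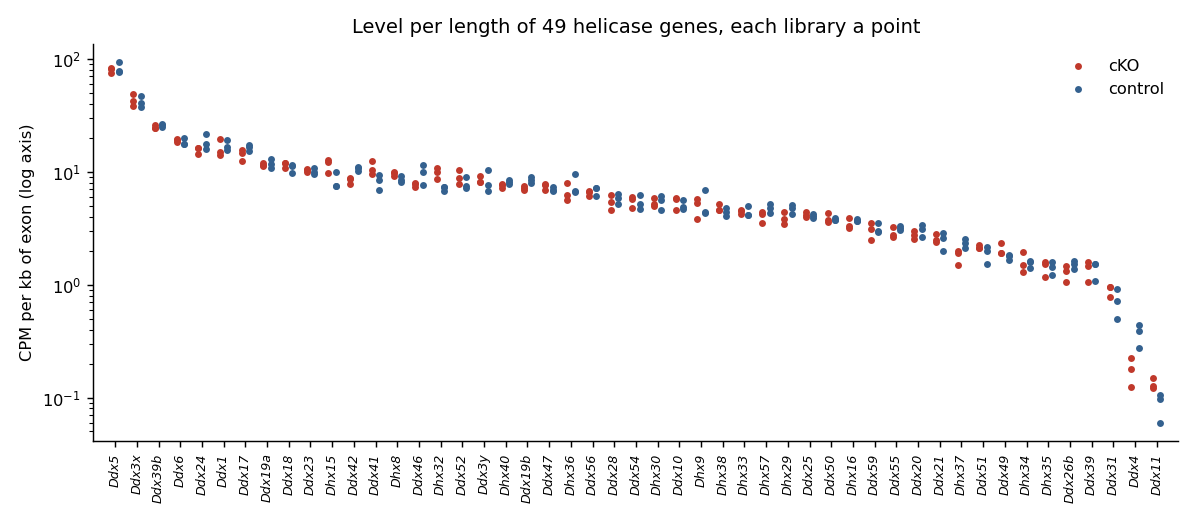
CPM per kilobase of annotated exon for the 49 genes on a log axis, ordered by the mean over the libraries, each library a point (cKO in red, left of control in blue). Levels run from 81.3 for Ddx5 to 0.11 for Ddx11, and cKO and control points lie side by side for most genes.

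Beside 4.03% of all genes tested higher in cKO and 3.85% lower, 1 of 20 RNA helicase genes outside the family rose and 0 fell. This was Mov10, an interferon-induced helicase of RNA decay, with 8.37, 3.42 and 4.79 CPM in the cKO libraries, against 1.59, 1.27 and 1.63 CPM in the control libraries (log2 fold change 1.89, SE 0.33, edgeR adjusted p = 0.00743). Of 22 tested genes for G-patch proteins, 3 rose and 1 fell, beside the same shares of all genes. The gene that fell was Rbm17, the gene targeted in the cKO animals. The splicing regulator Rbm10 rose by a log2 fold change of 0.48 (SE 0.12), the nuclear speckle protein gene Son by 0.37 (SE 0.10) and Gpatch8 by 0.44 (SE 0.10), with edgeR adjusted p of 0.0386, 0.0463 and 0.0242. The median log2 fold change of the G-patch genes was -0.01.

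Splice junctions were then compared within clusters of junctions that share a donor or an acceptor. A call needed an adjusted p under 0.05 and a change in share of at least 5 percentage points. Within the helicase genes 1301 junctions were listed, of which 451 were not annotated, and 284 could be tested, in 90 clusters of 39 genes. No testable cluster was found in Ddx1, Ddx11, Ddx20, Ddx28, Ddx31, Ddx4, Ddx42, Ddx52, Ddx54 and Dhx40. With edgeR's test, 0 of the 284 junctions were called, beside 0.751% of all 112047 tested, and 0 of 39 genes held a called junction, beside 4.95% of 11849 genes. At an unadjusted p under 0.05 there were 35, or 12.3%, beside 13.5% of all. Shares did not overlap between the groups at 24 junctions with cKO above and 15 with cKO below, beside 12.4% and 8.16% of all junctions tested.

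One helicase junction had an adjusted p under 0.05, beside 2.27% of all junctions tested, and changed its cluster share by less than 5 points. It lay in Ddx50, a nucleolar helicase of ribosome assembly, and was named after its values were seen, as were the other junctions below. In chr10:62640633-62643296 (mm10, minus strand) it joined exon 3 to exon 6 of Ddx50-201, 2 annotated sites that the annotation does not pair. It had 22, 32 and 33 reads in the cKO libraries, against 0, 0 and 0 in the control libraries. Its cluster share was 2.85% ± 0.72 in cKO (SD, n = 3) and 0 in control libraries, and edgeR's adjusted p was 0.00115, with a range from 0.000838 to 0.0102 over the alternatives. Set against the annotated junctions of the same exons alone, skipping made up 6.20%, 8.73% and 9.98% of the cKO libraries, against 0 in each control library, which over the control group allows a share of up to 0.351%. Where junctions were compared only with those of the same donor, or of the same acceptor, its change was 7.72 and 7.59 points, with adjusted p of 0.00172 and 0.00208, which is a call.

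Exon 4 is shown because it carries the ATP-binding site that a skipped transcript would lack. The first line gives exon 4 of Ddx50-201, on chr10:62642776-62642954, with 20 bases of exon 3 before it and 20 of exon 5 after it, and the capitals mark the 24 bases that encode a match to the Walker A motif, the ATP-binding loop of these enzymes. The second line gives the last 20 bases of exon 3 and the first 20 of exon 6 as the skipping junction joins them, without capitals because the motif is gone. Both read 5′ to 3′ on the mRNA strand (GENCODE vM21, mm10).
Ddx50 with exon 4: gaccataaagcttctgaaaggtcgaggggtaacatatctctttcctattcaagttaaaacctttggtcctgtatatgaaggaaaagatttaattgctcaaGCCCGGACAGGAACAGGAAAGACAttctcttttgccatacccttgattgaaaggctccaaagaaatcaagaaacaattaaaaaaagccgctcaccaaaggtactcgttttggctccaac
Ddx50 with exons 3 and 6 joined: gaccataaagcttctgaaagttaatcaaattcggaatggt
Exon 4 is 179 bp and exon 5, on chr10:62640745-62640862, is 118 bp long, both coding, and together they make 297 bp, a multiple of 3, so the junction keeps the reading frame. The motif was found in 43 of the 49 annotated coding sequences, as a match of letters and not as a test of function.

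Other junctions between the same exons of Ddx50 were also read mainly in cKO. Exon 3 joined to exon 5, which leaves out exon 4 alone and breaks the frame, had 17, 19 and 11 reads in the cKO libraries, against 3, 2 and 0 in the control libraries. Relative to inclusion of exon 4 this was 4.86% ± 1.0 in cKO and 0.610% ± 0.60 in control libraries (SD, n = 3 each). The groups did not overlap on this percentage, which was not tested. For the share of the junction in its cluster, edgeR's adjusted p was 0.391. A pair of unannotated junctions enclosed a new 45 bp exon between exons 4 and 5, at chr10:62642037-62642081. Its upstream junction had 8, 3 and 5 reads and its downstream junction 9, 2 and 7 reads in the cKO libraries, against 0 in each control library (adjusted p of 0.313 and 0.296 with edgeR). The annotated junction of exons 3 and 4 took 29.7%, 32.6% and 33.8% of the cluster in the cKO libraries, against 38.5%, 35.4% and 41.1% in the control libraries, without passing the test. The summed CPM of the gene did not separate the groups, at 43.8, 36.2 and 37.8 in cKO and 39.6, 37.7 and 37.9 in control libraries.

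**Figure D5:**
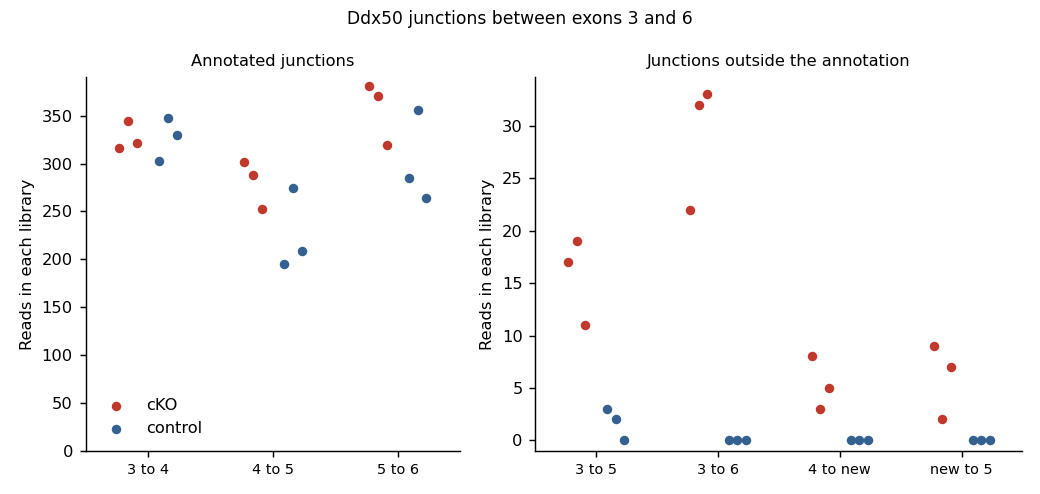
Reads in each library (points; cKO in red, left of control in blue) over annotated and unannotated junctions between exons 3 and 6 of Ddx50, named by the exons they join. The junction of exons 3 and 6 has 22 to 33 reads in the cKO libraries and 0 in the control libraries, while the annotated junctions have between 195 and 381 reads in each library.

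In all, 12 junctions in 9 helicase genes were read in all 3 cKO libraries and in no control library, 11 of them not annotated. This was 0.922% of the junctions listed in these genes, beside 1.43% of all 419327 junctions listed. The reverse, reads in all 3 control libraries and none in cKO, was found for 0 junctions of the set, beside 0.244% of all. In Ddx5, a junction that skips exon 3 had 12, 8 and 7 reads in the cKO libraries and 0 in each control library. It made up 0.358% ± 0.087 relative to inclusion in cKO (SD, n = 3), against 0 in the control group, which allows a share of up to 0.0455%. For the share of the junction in its cluster, edgeR's adjusted p was 0.183. Exon 3 of Ddx5-201, on chr11:106786448-106786544 (minus strand), is coding and 97 bp long, so its loss shifts the frame. It is shown in capitals for comparison with Ddx50, with the flanks and the joined form laid out as before.
Ddx5 with exon 3: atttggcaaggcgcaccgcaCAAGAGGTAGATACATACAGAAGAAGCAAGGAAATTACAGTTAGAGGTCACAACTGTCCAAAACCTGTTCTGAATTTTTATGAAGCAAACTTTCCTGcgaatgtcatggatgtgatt
Ddx5 with exons 2 and 4 joined: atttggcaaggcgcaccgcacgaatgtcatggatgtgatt
In Ddx26b, a junction that skips coding exons 5 and 6, 313 bp in all, had 4, 3 and 2 reads in the cKO libraries and 0 in each control library.

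The rest used splice sites outside the annotation, apart from the alternative Dhx32 intron above. In Dhx30, a pair of junctions enclosed a 38 bp exon at chr9:110095276-110095313 (minus strand). The pair had 116 and 96 reads in cKO library 1, 6 and 5 in cKO library 2, 3 and 2 in cKO library 3, and 0 in each control library, so that 1 library gave most of the reads (adjusted p of 0.205 and 0.258 with edgeR). In Ddx18, an acceptor 22 bp from the annotated one of exon 2 had 10, 8 and 21 reads in the cKO libraries and 0 in each control library, a share of 4.12% ± 2.3 in cKO (SD, n = 3; edgeR adjusted p = 0.112). Single unannotated sites in Ddx39b, with 5, 10 and 14 reads, in Dhx57, with 1, 4 and 9 reads, and in Ddx17, with 1, 1 and 2 reads in the cKO libraries, had 0 in each control library. Leaving out 1 cKO library, which relaxes the criterion to 2 cKO libraries, gave between 19 and 29 such junctions.

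Among annotated junctions, larger shifts in share did not pass the test. In Ddx26b, the junction at chrX:56493134-56496515 took 25.0%, 30.7% and 33.7% of its cluster in the cKO libraries, against 50.6%, 63.5% and 72.9% in the control libraries. The groups did not overlap, with a mean of 81.8 reads per library in the cluster and an edgeR adjusted p of 0.767. In Dhx57, the junction at chr17:80276036-80281195 took 23.6%, 26.8% and 26.6% in the cKO libraries, against 39.9%, 40.2% and 33.6% in the control libraries (edgeR adjusted p = 0.963). In Dhx30, the junction at chr9:110107970-110109025 took 23.7%, 20.6% and 15.3% in the cKO libraries, against 8.08%, 13.6% and 7.10% in the control libraries (edgeR adjusted p = 0.713). Over the set, the median absolute change was 1.55 points, beside 1.25 points over all junctions tested.

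The share of junction reads on unannotated introns was 0.605%, 0.548% and 0.670% over the helicase genes in the cKO libraries, against 0.413%, 0.475% and 0.603% in the control libraries. The ranges overlapped, and the difference of 0.11 percentage points had an exact two-sided permutation p of 0.20, where 0.10 is the smallest that 3 against 3 libraries allow. The overlap rested on Ddx49, in which the share was 14.8% in cKO library 3 and 17.4% in control library 3 and below 0.5% in each other library. Without Ddx49, left out after its values were seen, the share was 0.607%, 0.549% and 0.494% in the cKO libraries, against 0.415%, 0.477% and 0.446% in the control libraries. These groups did not overlap, and the difference was 0.104 percentage points, with the smallest exact permutation p, 0.10. Over all genes the share was 2.13%, 2.03% and 2.04% in the cKO libraries, against 1.52%, 1.98% and 1.69% in the control libraries, without overlap and with an exact permutation p of 0.10.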

How the data were processed

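Ribosome-bound RNA was profiled in 3 cKO and 3 control libraries. The authors deposited raw counts per gene in 1 table and, for each library, a junction list made by TopHat per the file headers, whose count is the number of reads spanning each junction. TopHat2 2.1.0, HTSeq 0.6.0 and mm10 are named in the submitters' processing notes, and the sources used here do not state how strand and multiply aligned reads were handled. The library kit named in the labels is for DNA and marks no strand, so overlapping genes are uncertain. Amplification without molecular identifiers means that floors, set at 3 reads, cover counting error only.

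The members and gene lists were chosen with earlier results of these data known. Each member is named at least once. Values by library are given for called members, the 3 highest per length, Ddx3x, Ddx3y and the 2 uncalled members with the smallest p, and any other gene or junction was chosen after its values were seen. Genes were tested in 1 fit, in R 4.3.3, with the quasi-likelihood test of edgeR 4.0.16 after filterByExpr and TMM scaling and without covariates, with Benjamini-Hochberg adjustment over 16067 genes and a threshold of 0.05. CPM uses TMM-scaled library sizes. RPM takes the reads over annotated junctions of a gene and divides by the total of all junction reads in each library, without such scaling. Junctions found in at least 2 libraries, with a sum of at least 10 reads, were clustered by shared donor or acceptor, giving 29112 clusters, and tested with diffSpliceDGE. Skipping is the skipping reads over the sum of these and the mean of the inclusion junctions. Introns, exons and coding frames come from GENCODE vM21 on mm10, and a new exon encloses at most 500 bp. The Walker A motif was searched by the PROSITE pattern of that name. Alternatives were RLE and upper quartile scaling, other filters, DESeq2 1.42.0, limma-voom 3.58.1, a replicate block, omission of each library, and other junction groups and minimums. The scripts were tested on simulated data. Replicates of a group differed by far more than counting noise.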

Additional observations from a re-analysis of the deposited data

How the results depend on the processing

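DESeq2 called 2042 genes in place of 1265, and 2 helicases up (Dhx32 and Dhx15) and 1 down (Ddx42) in place of 1 and 0. Leaving out 1 library gave between 530 and 1037 genes, between 0 and 1 helicases up and 0 down; without control replicate 1 the helicase called was Dhx15, not Dhx32. Other scalings, count filters, limma-voom and library sizes without Rn45s kept the count of helicases at 1 up and 0 down. The count of called junctions was 842 in the main setting, 814 with donor groups and 556 with acceptor groups. It was 436 with a change of at least 10 points, and between 516 and 697 with 1 library left out. Helicase junctions called were 1 with donor groups and 1 with acceptor groups, each in 1 gene, Ddx50, in place of 0, and 0 with 1 library left out. The cause of these differences was not tested.

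Same-numbered libraries deviated from their group means with correlations of 0.04, -0.06 and 0.02, and 1 of 3 libraries in each group correlated best with its own number, so the numbers are not taken as pairs. With the replicate number as a block, 1734 genes were called over all, in place of 1265, and 777 junctions, in place of 842. Under this setting 3 helicases were called up (Dhx32, Dhx15 and Ddx41) and 1 down (Ddx42). The helicase junctions called were 2, both in 1 gene, Dhx30. No result changed direction past the threshold under the alternatives run. With 3 libraries per group, an interval within 1.5-fold was reached by 39 of 49 helicases, and depth limits Ddx4 and Ddx11.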

Other observations

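Ddx60, which fell under the minimum of the set, had 91, 24 and 15 counts in the cKO libraries, against 15, 46 and 19 counts in the control libraries, and the groups overlapped.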
